A study of Homo sapiens with 17 samples.

Results

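IMR32 is an established human neuroblastoma line with amplified MYCN, and clones c6 and c8 are derivatives of it in which doxycycline switches on NOTCH3IC, the intracellular domain of the receptor NOTCH3. The comparison described here asks which genes stood at different levels in the clones once induction had run long. It sets the 3 arrays of clone c8 labelled 48, 72 and 96 against the 3 arrays of clone c6 labelled 48, 72 and 96, which are 6 of the 17 Affymetrix arrays of the series. The labels give times with no unit, doxycycline as the agent for every array, DMEM with fetal calf serum as the medium, and 1 array per clone and time. The other arrays are those at times 0, 4, 8, 12 and 24 of both clones and at time 120 of c6. Both clones carry the construct, each stands for a single clone, and no clone without the construct was analysed here. Each clone has 3 late arrays because 3 times serve as its replicates. No label states that separate cultures were used, so the scatter left once time was allowed for may be technical. It may also hold real differences between the time courses of the clones. In this comparison the p-values and standard errors rest only in small part on a gene's own scatter. Most of their weight comes from the spread that the limma model fitted over genes of similar intensity.

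NOTCH3 is 1 of the 4 mammalian Notch receptors. When a ligand of the Jagged or Delta-like family binds, the receptor is cut and its intracellular domain moves to the nucleus, where it joins the DNA-binding protein RBPJ and switches on genes such as the HES and HEY transcriptional repressors. In blood vessels NOTCH3 is known for its role in smooth muscle cells and pericytes. In neuroblastoma, a tumour of the sympathetic nervous system, Notch activity has been tied to a shift from neuron-like adrenergic cells to motile mesenchymal-like cells.

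The late arrays of both clones gave clear signals for MYCN, GATA3 and PHOX2A. MYCN signals were 4937, 4857 and 5232 in c6 and 4238, 4831 and 4545 in c8. GATA3, an adrenergic transcription factor, lay between 3336 and 4026 in c6 and between 3100 and 3418 in c8, and PHOX2A, another of these factors, between 583 and 903 in c6 and between 737 and 1031 in c8. None of the 3 genes passed the test between the clones with its brightest probe set, the one that stands for each gene here. Among the 3 other probe sets of MYCN, however, 2 dimmer ones were called lower in c8 (-1.13, adjusted p = 9.66e-05, and -0.90, adjusted p = 0.001433, limma over every probe set), so the probe sets of MYCN disagreed. Signals here are the deposited array intensities, scaled per array, and differences are c8 minus c6 on the log2(signal + 16) scale, which understates the fold of weak genes. On that scale PHOX2A changed from the single time 0 array to the late mean by -0.76 in c6 and -0.78 in c8. DBH, a gene of noradrenaline synthesis, changed by -2.40 in c6 and -1.98 in c8. GATA3 changed by -0.17 and -0.27, and the adrenergic factor HAND2 by 0.05 and -0.11.

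The clones differed at 1476 of the 13675 genes tested at an adjusted p under 0.05 (limma with time as a block and Benjamini-Hochberg adjustment), or 10.8% of genes. Of these, 724 were higher in c8 (5.29% of genes tested) and 752 were lower in c8 (5.50%). The usual size was modest, with a median of 0.52 among the higher and -0.57 among the lower genes. Only 64 called genes were 2-fold or more apart (0.468% of genes tested), 30 of them higher and 34 lower in c8. Across all genes the median difference was 0.03 and the SD 0.29. The late arrays of the clones did not overlap for 1352 of the called genes and for 28.9% of all genes. The count of calls rested on the model: without the intensity trend in limma's variance estimate 119 genes were higher and 161 lower, with no filter on dim genes 54 and 98, and with a gene's probe sets averaged 439 and 453. Without the arrays of time 72 there were 347 and 389, without those of time 96 there were 364 and 475, and with each array centred on its median 374 and 497.

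The strongest difference of all was PAGE1, a member of a family of cancer-testis antigens normally expressed in the testis. Its signals were 11.7, 1.8 and 8.6 in c6 against 137, 196 and 149 in c8. The gene stood near the bottom of the array's range at all c6 times and was clearly measured at all c8 times, time 0 included, with no overlap. The late difference was 2.93 ± 0.19 (SE, 3 arrays per clone, adjusted p = 3.16e-08, limma). At the other end stood RAB31, a small GTPase of membrane traffic. Its signals were 680, 746 and 655 in c6 against 138, 156 and 179 in c8, a difference of -2.04 ± 0.13 (adjusted p = 2.15e-08, limma). Every c8 array lay below every c6 array, and the signal in c8 was 67.2 at time 0, so that it stood higher on each late c8 array than at the start.

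The stretches of 250 bases before the annotated starts of PAGE1, RAB31 and FBN1 are shown because PAGE1 and RAB31 were the most different genes each way and FBN1, the matrix glycoprotein fibrillin 1, was among the genes whose difference was absent at time 0. Sequences come from RefSeq on GRCh38.p14, read 5′ to 3′ on the gene's strand. Capitals mark CACGTG, the E-box recognised by MYC and related proteins, and TGGGAA, the core of the RBPJ site, each searched on both strands; the motifs do not overlap here.
PAGE1, chrX:49695985-49696234, minus strand: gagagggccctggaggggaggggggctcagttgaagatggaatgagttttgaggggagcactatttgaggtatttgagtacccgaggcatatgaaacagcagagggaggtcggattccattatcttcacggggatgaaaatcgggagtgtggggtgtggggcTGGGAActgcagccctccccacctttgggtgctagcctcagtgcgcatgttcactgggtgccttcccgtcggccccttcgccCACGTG
RAB31, chr18:9708051-9708300, plus strand: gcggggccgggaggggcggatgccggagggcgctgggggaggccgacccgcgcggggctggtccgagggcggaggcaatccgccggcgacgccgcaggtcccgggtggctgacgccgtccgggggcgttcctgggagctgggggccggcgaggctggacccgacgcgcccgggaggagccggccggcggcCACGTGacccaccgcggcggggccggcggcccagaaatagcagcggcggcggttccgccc
FBN1, chr15:48644971-48645220, minus strand: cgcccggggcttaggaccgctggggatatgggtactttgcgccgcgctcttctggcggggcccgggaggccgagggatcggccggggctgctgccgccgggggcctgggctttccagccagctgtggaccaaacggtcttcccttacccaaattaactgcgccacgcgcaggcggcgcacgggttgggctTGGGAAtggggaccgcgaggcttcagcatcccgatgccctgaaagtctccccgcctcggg
The E-box began 6 bases before the start of PAGE1 and 60 bases before that of RAB31, and 6.34% of the 35116 promoter stretches of this length in the table hold it. TGGGAA began 88 bases before the start of PAGE1 and 60 bases before that of FBN1, and 20.8% of stretches hold it. The PAGE1 stretch held 9 CG dinucleotides, the FBN1 stretch 25 and the RAB31 stretch 40, beside a median of 11 over all stretches. These matches describe the letters, and binding of any factor was not measured.

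After PAGE1, the largest differences in favour of c8 among genes whose late arrays did not overlap were those of PHF5A and 13 others. PHF5A, a subunit of the SF3b splicing complex, gave 170.5, 148 and 236 in c6 and 317, 838 and 753 in c8 (difference 1.61 ± 0.19). PLK1, the kinase that drives entry into mitosis, gave 129.5, 161 and 137 in c6 and 442, 451 and 334 in c8 (1.42 ± 0.13). In both genes the groups were apart, and for PHF5A the c8 array at 48 was well below the other 2. AP1S1, a subunit of the AP-1 clathrin adaptor, was higher by 1.43 ± 0.15, and LMNB1, which encodes lamin B1 of the nuclear lamina, by 1.25 ± 0.20. NPM3, a nucleophosmin family chaperone (1.25), EEF1A2, a translation elongation factor found mainly in neurons and muscle (1.13), and FKBP10, a chaperone for collagen in the endoplasmic reticulum (1.18), were higher as well. Secreted proteins were represented by RARRES2, which encodes chemerin (1.28), and NPTX2, a neuronal pentraxin (1.22). GALNT16, which starts O-linked glycosylation (1.20), KLHDC3, a substrate receptor of a ubiquitin ligase (1.42), ZNF687 (1.15), MARCHF11 (1.13) and GPR160, an orphan receptor (1.12), completed the 15 highest. All 15 had adjusted p-values of 0.002241 or less (limma). TAF15, an RNA-binding protein (1.43), was called with a difference of that size, but its clones overlapped; it is named here after its values were seen.

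The genes lowest in c8 after RAB31 were varied in their known roles. LRRN3, a neuronal leucine-rich repeat protein, gave 347, 323 and 347 in c6 and 93.5, 90.8 and 93.7 in c8 (-1.71 ± 0.13). MEST, an imprinted gene expressed from the paternal copy, gave 1209, 1016 and 1165 in c6 and 383, 334 and 372 in c8 (-1.60 ± 0.11). Both clones were nearly flat for these genes over the late times, and they did not overlap. ADAMTS5, an aggrecan-cutting protease (-1.76 ± 0.15), IGFBP5, an insulin-like growth factor binding protein (-1.29 ± 0.13), SCG2, which encodes the granule protein secretogranin II (-1.19 ± 0.12), CYTL1, a secreted cytokine-like protein (-1.30), and the pentraxin NPTX1 (-1.19) were lower in c8. Of 23 matrix proteases and inhibitors tested, 2 were called by limma, both lower (8.70%, beside 5.50% of all genes tested). They were ADAMTS5 and the related ADAMTS1 (-0.71 ± 0.13, adjusted p = 0.001865, limma). A second ADAMTS1 probe set, at -0.31, was not called (adjusted p = 0.313, limma over every probe set). The 2 neuronal pentraxins lay on opposite sides of the comparison. SLITRK6, a membrane protein of developing neurons, was lower in c8 (-1.32) and stood above its time 0 signal on all late arrays of both clones. Its signals went from 91.8 at time 0 to 246, 408 and 517.5 in c6 and from 8.1 to 122, 131 and 171 in c8. GPR155 (-1.28), CRYGD, a lens crystallin (-1.28), IFI44L, an interferon-stimulated gene (-1.27), and FIGN, a microtubule-severing enzyme (-1.18), were lower by similar amounts. The remaining members of the 15 lowest, TPM2 and MYC, are described with their groups.

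**Figure D1:**
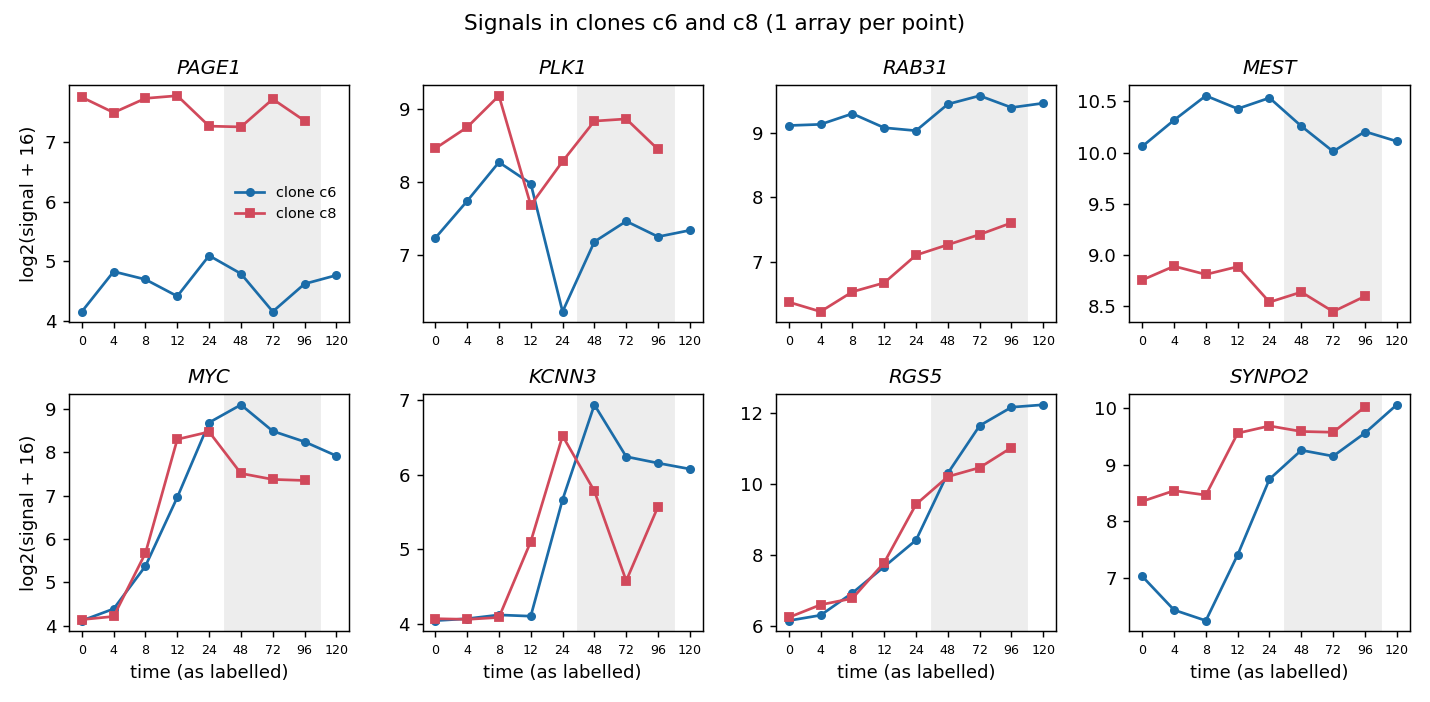
Signals of 8 genes on the log2(signal + 16) axis against the labelled time, spaced evenly, in c6 (blue circles) and c8 (red squares), 1 array per point, with the late times shaded. PAGE1, RAB31 and MEST were apart from time 0 on and PLK1 at every time but 12, whereas MYC, KCNN3 and RGS5 started level and were lower in c8 late; for SYNPO2 the gap was wider early than late.

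In the leading genes the clones were already apart before induction. All 15 highest genes and 13 of the 15 lowest were apart at time 0, meaning that the single time 0 arrays differed the same way by at least 0.5 times the late difference; GPR155 was in between and MYC was not apart. Over all 1476 called genes, 822 (55.7%) were apart at time 0, 295 were in between, and 359 (24.3%) had opened after induction, meaning a time 0 difference under 0.25 times the late one or of opposite sign. The first class held 49.2% of all genes tested, the middle one 8.29% and the last 42.5%. The sign of the late difference was met again at time 0 in 88.5% of called genes, beside 64.7% of all genes. It was met in 83.1%, 78.9%, 83.3% and 80.5% of called genes at times 4, 8, 12 and 24, where the shares of all genes were between 58.6% and 62.7%. Single arrays carry no replicate error, so these classes are descriptions.

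**Figure D2:**
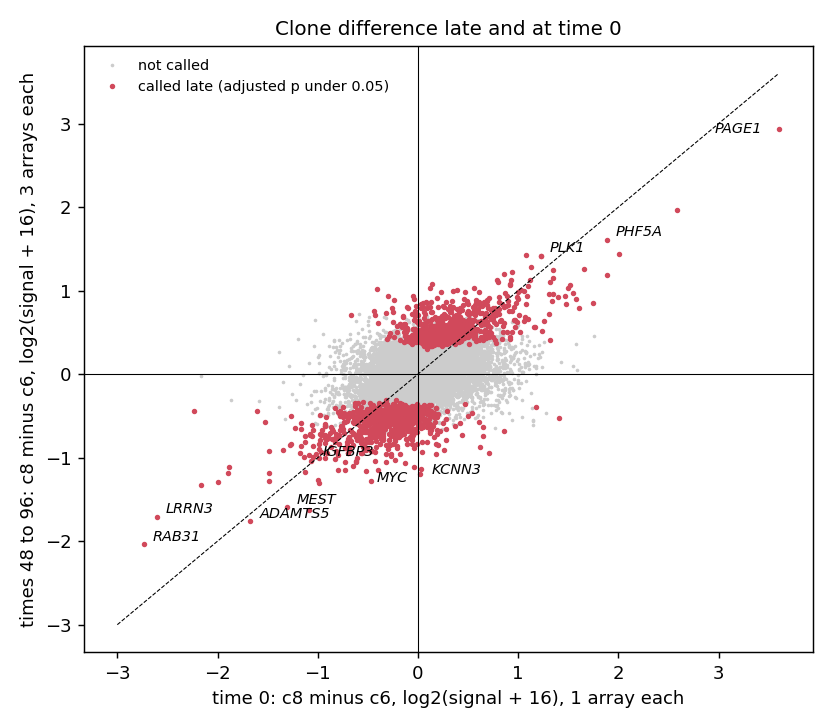
Late clone difference (c8 minus c6, times 48 to 96, 3 arrays per clone) against the difference at time 0 (1 array per clone), both in log2(signal + 16), 1 point per gene, called genes in red and the dashed line marking equal differences. PAGE1, PHF5A, RAB31 and LRRN3 lie far out along the line, whereas MYC and KCNN3 lie near 0 at time 0 and below -1 late.

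In the early phase, at times 4, 8 and 12, the same test called 1139 genes (8.33% of genes tested), 614 of them higher and 525 lower in c8. Genes called in both phases made up 28.7% of late and 37.2% of early calls, 417 of them in the same direction and 7 in opposite directions. RAB31 (-2.69 early), PAGE1 (3.03) and MEST (-1.57) were among the genes apart in both phases. At time 120, measured in c6 alone, c6 lay nearer the late mean of c8 than its own late mean for 12.6% of called genes and for 34.3% of all genes tested.

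NOTCH3 itself was higher in c8. Its late signals were 467, 424.5 and 393 in c6 and 794, 703 and 836 in c8. The clones did not overlap, and they were also apart at time 0, with 94.6 in c6 and 218 in c8. The late difference was 0.84 ± 0.12 (adjusted p = 0.000277, limma), and the early one 1.63 ± 0.13 (adjusted p = 0.000475, limma). The decrease of the gap by 0.79 between phases did not pass the test (adjusted p = 0.104, limma). The labels do not say whether the probes see the construct's RNA, the cell's own NOTCH3 RNA or both.

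None of HES1, HES4, HES5, HEY1, HEY2, HEYL and NRARP, the direct Notch targets fixed by name, passed the test late. HEY1 signals were 3314, 2377 and 2637 in c6 and 3218, 2923 and 3184 in c8, a difference of 0.17 with a 95% interval of -0.04 to 0.39. HEYL differed by 0.09 (interval -0.18 to 0.36), HES4 by 0.13 (-0.16 to 0.42), NRARP, a feedback inhibitor of Notch, by -0.10 (-0.39 to 0.19), and the Notch ligand JAG1 by 0.05 (-0.20 to 0.30). For these 5 genes the intervals leave out a 2-fold difference either way, and the arrays of the clones overlapped. For JAG1 this holds for the brightest probe set only, since 2 of its 3 others were called in opposite directions (-0.68, adjusted p = 0.002934, and 0.69, adjusted p = 0.00521, limma over every probe set). HEY2 was nearer the threshold at 0.40 (interval 0.11 to 0.70, adjusted p = 0.077, limma), with 225, 185 and 311 in c6 and 326, 313.5 and 307 in c8. HES1 differed by -0.38 (interval -0.73 to -0.03, adjusted p = 0.161, limma) and HES5 by -0.33 (interval -0.81 to 0.14). HES1 signals were 112, 189 and 308 in c6 but 129, 143 and 151 in c8, so that c8 was the higher clone at 48 and the lower one at 72 and 96. In the early phase HEY1 (1.09, adjusted p = 0.023) and JAG1 (0.78, adjusted p = 0.028) had been higher in c8 by limma; the change between phases did not pass for either (adjusted p = 0.2496 and 0.2577).

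Of the 19 tested genes listed as Notch targets, 2 were higher and 2 lower in c8 (10.5% each way), with a median of -0.03. Among all genes tested, 5.29% were higher and 5.50% lower. Beside NOTCH3, the cell-cycle inhibitor CDKN1A was higher (0.44), and the transcription factors SOX9 (-0.45) and MYC were lower. MYC was not apart before induction. It was near 0 at time 0 in both clones (1.3 and 1.6), reached 109 in c6 and 300 in c8 at time 12, and 397 and 340.2 at time 24. Late, the signals were 534, 344 and 288 in c6 against 167, 150.2 and 147.5 in c8, without overlap. The late difference was -1.20 ± 0.14 (adjusted p = 4.02e-05, limma), while its change from the early phase, -1.69 ± 0.33, did not pass (adjusted p = 0.0835, limma). Among 29 receptors, ligands and machinery genes, 2 were higher and 2 lower (6.90% each way), near the shares of all genes tested. MFNG, a Fringe glycosyltransferase that tunes ligand choice, was higher in c8 (0.995 ± 0.193), while the ligand DLL1 (-0.73 ± 0.20) and MIB1, the ubiquitin ligase that activates ligands (-0.46 ± 0.14), were lower.

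Smooth muscle and pericyte markers split, with 16.7% called each way, beside 5.29% higher and 5.50% lower of all genes tested. Of 18 tested, 3 were higher in c8 (NOTCH3, the smooth muscle myosin MYH11 at 0.58 and the transcriptional coactivator MYOCD at 0.62) and 3 were lower (TPM2, RGS5 and KCNJ8), with a median of 0.10. The other probe sets of MYH11 (0.06 to 0.22) and MYOCD (0.48) had the same sign but were not called (limma over every probe set). TPM2, a tropomyosin, gave 133, 191 and 531 in c6 and 54.4, 69.7 and 79.1 in c8, a difference of -1.63 ± 0.20. Each later array of a clone was higher than the one before, and the highest c8 array lay below the lowest c6 array. RGS5, a pericyte regulator of G-protein signalling, gave 1252, 3197 and 4594 in c6 and 1170, 1398 and 2076 (-0.81 ± 0.15, adjusted p = 0.002869, limma) in c8. The clones were close at 48 and apart at 72 and 96. KCNJ8, a potassium channel subunit of pericytes, was lower too (-0.73). The contractile genes ACTA2 (0.38, interval 0.06 to 0.69, adjusted p = 0.122) and TAGLN (0.37, interval 0.02 to 0.73, adjusted p = 0.174) did not pass by limma, although a dimmer TAGLN probe set was called higher (0.58, adjusted p = 0.027, limma over every probe set). ACTA2 stood at 2094, 4732 and 7632 in c6 and at 4343, 5768 and 6624 in c8, so the clone with more signal at 48 had less at 96. MYH11 went from 38.2 in c6 against 105 in c8 at 48 to 177 against 185.5 at 96, with c8 still the higher clone, and its arrays overlapped. Without the arrays of time 96 the list held 6 genes higher and 3 lower; without those of time 48, 1 and 3.

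Genes of the extracellular matrix were mostly lower in c8 where they passed. Among 19 collagens tested, 6 were lower (31.6%) and 1 higher (5.26%), while the list's median was -0.05. The shares over all genes tested were 5.50% lower and 5.29% higher. COL6A3, a chain of the beaded-filament collagen VI, gave 320.2, 172 and 155 in c6 and 121, 81.8 and 77.2 in c8. All c8 arrays lay below all c6 arrays, and the difference was -1.04 ± 0.14 (adjusted p = 0.000164, limma). COL25A1, a transmembrane collagen of neurons (-0.77), COL5A2 (-0.75), COL1A1 (-0.66), COL5A1 (-0.51) and COL6A2 (-0.48) were the other lower members, and COL2A1, the cartilage collagen (0.64), the higher one. COL3A1, a fibrillar collagen, did not pass with its brightest probe set (-0.08, interval -0.34 to 0.17), while 1 of its 3 other probe sets was called lower (-0.90, adjusted p = 0.009224, limma over every probe set). The brightest one's arrays stood at 3306, 5429 and 6491 in c6 and at 4285, 4645 and 4922 in c8. Of 28 other matrix genes, 6 were lower (21.4%) and 1 was higher (3.57%), with a median of -0.01. FBN1 gave 127, 78.2 and 69.7 in c6 and 54.0, 26.4 and 36.8 in c8, a difference of -0.96 ± 0.16. The collagen cross-linking enzyme LOX (-0.68), the proteoglycans LUM (-0.66), HSPG2 (-0.62) and VCAN (-0.54), and the laminin chain LAMB1 (-0.39) were lower, and the microfibril protein MFAP2 was higher (0.72). Fibronectin, FN1, did not pass (-0.36, adjusted p = 0.152, limma). The matrix list held 3 lower genes and 1 higher gene without the arrays of time 72 or of time 96, and 7 lower and 3 higher without those of time 48.

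**Figure D3:**
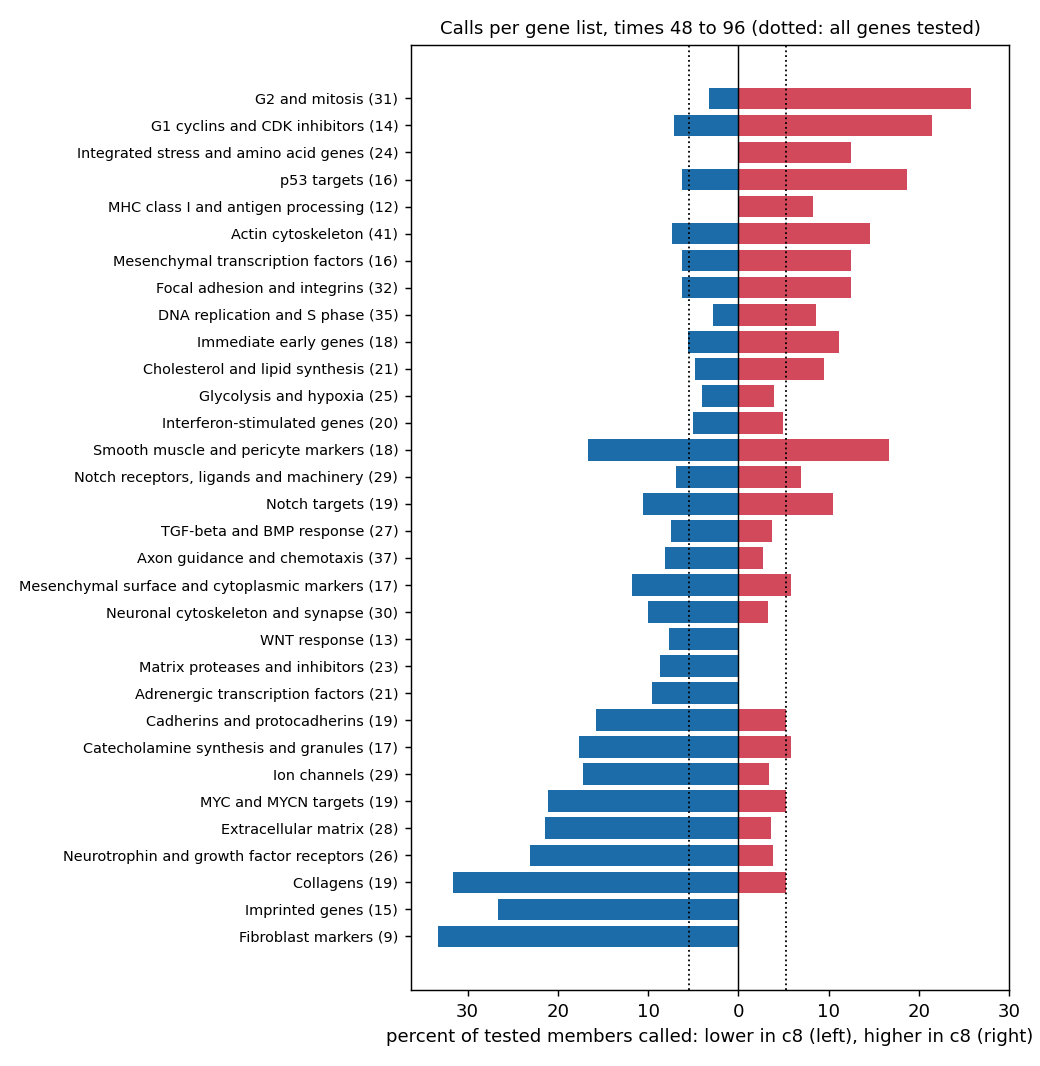
Percent of each list's tested members (number in brackets) called at times 48 to 96, with members lower in c8 to the left in blue and higher to the right in red; dotted lines mark the shares over all genes tested, and lists with no call are left out. Collagens, imprinted genes and fibroblast markers reach farthest to the left and the mitosis list farthest to the right.

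Adhesion and cytoskeleton genes went both ways. The focal adhesion list had 12.5% higher and 6.25% lower, and the actin list 14.6% and 7.32%. Beside these, 5.29% of all genes tested were higher and 5.50% lower. Among 32 focal adhesion and integrin genes, 4 were higher, including talin (TLN1, 0.66) and the fibronectin receptor chain ITGA5 (0.68), and 2 were lower, ITGA4 (-0.99) and ITGAV (-0.48). Without the arrays of times 48, 72 and 96 in turn, 2, 1 and 2 of them were higher. Among 41 actin genes, 6 were higher and 3 lower (median 0.003), and without the arrays of time 72 or of time 96, 3 were higher. The higher ones included the tropomyosins TPM4 (0.59) and TPM1 (0.43), the formin DIAPH3 (0.45), the capping protein subunit CAPZB (0.37) and the profilin PFN2 (0.36). Of 17 mesenchymal surface and cytoplasmic markers tested, 1 was higher (5.88%) and 2 were lower (11.8%), with a median of -0.07. The intermediate filament gene VIM was lower (-0.51), with 5264, 6445 and 7559 in c6 and 4265, 4732 and 4367 in c8. LMNA, which encodes lamins A and C, was lower (-0.77), opposite to LMNB1. Among mesenchymal transcription factors TWIST1 (0.51) and MAFF (0.49) were higher and SNAI2 (-0.37) was lower, none of which was called without the arrays of time 96. Of 19 cadherins and protocadherins, CDH10 was higher (0.97) and CDH7 (-1.10), PCDH19 (-0.96) and PCDH9 (-0.89) were lower, all with arrays that did not overlap.

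The mitosis list had the largest share of members higher in c8 among the lists fixed for this comparison. Of 31 genes of G2 phase and mitosis, 8 were higher (25.8%) and 1 lower (3.23%), beside 5.29% and 5.50% of all genes tested. The list's median was 0.17 late, -0.44 early and -0.03 at time 0. BIRC5, which encodes survivin, gave 1476.5, 1525 and 1361 in c6 and 1953, 2482 and 1818 in c8 (0.50 ± 0.11). All c8 arrays lay above all c6 arrays, although the time 0 arrays stood at 1918.5 and 1959. The cyclins CCNA2 (0.50) and CCNB1 (0.46), the aurora kinases AURKB (0.49) and AURKA (0.43), the kinesin KIF2C (0.45) and PRC1 of the central spindle (0.41) were higher too. At time 0 the difference was -0.28 for AURKB, -0.14 for CCNA2 and between -0.04 and 0.04 for the others of these. PLK1 alone among the 8 was apart at time 0. CENPE, a kinetochore motor, was lower (-0.88 ± 0.18), and the proliferation marker MKI67 was level (0.00, interval -0.27 to 0.27). Without the arrays of time 48 the count was 6 higher and 3 lower, and with each array centred on its median 5 and 1. The test of late against early did not pass for AURKB (1.08, adjusted p = 0.124) or CCNB1 (0.87, adjusted p = 0.157) by limma.

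DNA replication genes were higher in 3 of 35 cases, with PCNA, the polymerase clamp (0.47), RPA2 (0.44) and GINS1 (0.44), and lower in 1, MCM4 (-0.41). These shares, 8.57% higher and 2.86% lower, stand beside 5.29% and 5.50% of all genes tested. The median of that list was 0.20, beside 0.03 over all genes. Without the arrays of time 96 none of the replication genes passed. Of 14 G1 regulators, RBL2 (0.51), CDKN1A and RB1 (0.39) were higher, all of them brakes on entry into S phase, and the kinase CDK6 was lower (-0.48). The single other probe sets of RBL2 (-0.49) and RB1 (-0.37) had the opposite sign and were not called (adjusted p = 0.082 and 0.175, limma over every probe set), and 1 and 0 members were higher without the arrays of time 72 and of time 96. CCND1 differed by 0.05 (interval -0.19 to 0.28) with its brightest probe set, whereas its other probe set was called lower (-0.48, adjusted p = 0.0204, limma over every probe set). The p53 targets BAX (0.44), TNFRSF10B (0.41) and CDKN1A were higher, while MDM2, the ligase that degrades p53, was lower (-0.54). None of the 16 p53 targets was called higher without the arrays of time 72, without those of time 96 or with each array centred on its median, and both other probe sets of TNFRSF10B had the opposite sign (-0.03 and -0.20). Among 19 targets of MYC and MYCN, 4 were lower (NCL at -0.49, the chaperonins HSPE1 at -0.36 and HSPD1 at -0.31, and MDM2) and 1 was higher, ODC1 of polyamine synthesis (0.41); 2 were lower without the arrays of time 48 or of time 72.

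Calls in the neural lists were small in number, with 2 or 3 genes lower and at most 1 higher in each. The shares lower were 17.6% for catecholamine and granule genes and 10.0% for neuronal cytoskeleton and synapse genes. They were 9.52% for adrenergic transcription factors and 8.11% for axon guidance genes, beside 5.50% of all genes tested. Shares higher were 5.88% or less, beside 5.29% of all genes tested. The list of catecholamine and granule genes had 3 of 17 members lower, with SCG2 at 614, 396 and 342 in c6 and 251, 176 and 138 in c8, SCG3 at -0.58 and the prohormone-processing enzyme CPE at -0.38, whose other probe set had the opposite sign (0.39); 1 was lower without the arrays of time 48 or of time 72. DBH, which makes noradrenaline, was the higher member (0.74, adjusted p = 0.039, limma). Its signals were 44.6, 35.0 and 3.9 in c6 and 51.1, 56.4 and 42.9 in c8. The c6 array at 96 stood far below the others, and without the arrays of time 96 the difference was 0.33 (adjusted p = 0.461, limma). None of the 21 adrenergic transcription factors was higher, and 2 were lower, KLF7 and KLF13 (both -0.54), neither of them called without the arrays of time 96. Of the 2 other probe sets of KLF13, 1 had the opposite sign (0.45) and was not called. Among 30 genes of neuronal cytoskeleton and synapse, MAP2, the dendritic microtubule protein (-0.91), CNTN1, an axonal adhesion protein (-0.63), and MAP1B (-0.35) were lower, and the tubulin TUBB2B was higher (0.68). Axon guidance had EPHA3 higher (0.84) and NRP2 (-0.90), UNC5C (-0.52) and ROBO1 (-0.38) lower, of 37 tested.

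Growth factor receptors and ion channels held more lower than higher calls. Of 26 receptors, 6 were lower (23.1%) and 1 was higher (3.85%), beside 5.50% and 5.29% of all genes tested. NTRK2, the receptor of brain-derived neurotrophic factor, gave 33.5, 63.9 and 58.8 in c6 and 19.7, 15.7 and 30 in c8 (-0.84 ± 0.19), with 2.2 and 1.5 at time 0. IL6ST, the shared receptor chain of the interleukin 6 family (-0.75), GFRA1, a co-receptor of RET (-0.75), KIT (-0.63), PDGFRA (-0.54) and LIFR (-0.44) were lower, and NTRK3 was higher (0.48), with overlapping arrays. Of 29 ion channels, 5 were lower (17.2%) and 1 higher (3.45%). KCNN3, a calcium-activated potassium channel, gave 107, 59.7 and 55.3 in c6 and 39.0, 7.9 and 31.6 in c8 (-1.13 ± 0.19). It stood at 0.5 and 0.8 at time 0, and c8 was the higher clone at 12 and 24 before it was the lower one late. CACNA2D1 (-1.001), KCNJ6 (-0.88), the sodium channel SCN3A (-0.78) and KCNT2 (-0.43) were lower, and KCNK1 was higher (0.64).

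In the remaining lists the counts of called genes were small. Over all genes tested, 5.29% were higher and 5.50% lower in c8. Of 15 imprinted genes, 4 (26.7%) were lower in c8 and none higher: MEST, ZDBF2 (-0.74), DIRAS3 (-0.57) and PEG10 (-0.49). PEG10 was 508 in c6 and 249.9 in c8 at time 0, and MEST, ZDBF2 and PEG10 were all apart then. Without the arrays of time 72 that count was 2. Stress and amino acid genes had 3 of 24 higher (CHAC1 at 0.71, XBP1 at 0.52 and CTH at 0.51) and none lower; without the arrays of time 72 or of time 96 none was higher, and without those of time 48, 5 were higher and 1 lower. Interferon-stimulated genes had IFITM2 higher (0.45) and IFI44L lower, of 20. The AP-1 genes JUND (0.61) and JUN (0.41) were higher. Both other probe sets of JUND had the opposite sign (-0.02 and -0.13), and no other JUN probe set was called (limma over every probe set). CCN1 (-0.52), BMPR2 (-0.67) and DKK1 (-0.67), an inhibitor of WNT signalling, were lower, and CALR (0.65) and SMAD6 (0.49) were higher. Of the genes of sterol synthesis, EBP (0.46) and NSDHL (0.45) were higher and SC5D (-0.61) lower, and of glycolysis PKM was higher (0.41) and PDK1 lower (-0.52). None of the 22 ribosomal protein genes and 15 histone genes passed by limma, with 6 and 4 at an unadjusted p under 0.05. Most list counts were small and moved with the arrays used: of the 32 lists with a called member, 28 had a higher or a lower count that moved by over 1.5 times without 1 of the late times. Over all lists together, 52 distinct genes were higher and 71 lower.

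Markers of other cell types were checked in the same arrays. None of the 4 endothelial, 4 immune, 6 glial and 5 melanocyte markers that passed the filter was called by limma, and 1 immune and 1 glial marker had an unadjusted p under 0.05. Of the markers on the array, 8 of 12 endothelial, 7 of 10 immune and 7 of 13 glial ones were under a signal of 16 on all late arrays. Summed over each whole list, endothelial signals were 99.4 to 110.3 in c6 and 91.2 to 153 in c8, immune signals 65.2 to 98.7 and 88.9 to 118, and glial signals 533.5 to 555.5 and 565 to 631. Fibroblast markers had 3 of 9 members lower (COL1A1, LUM and PDGFRA), or 33.3%, beside 5.50% of all genes tested. Their sums were 5570 to 9713 in c6 and 6244 to 7127 in c8. In bulk RNA, fewer cells making a transcript and less transcript per cell cannot be told apart.

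Genes that both clones induced were compared as a set chosen from the change since time 0, which shares the late arrays with the test, so the counts are descriptions. Of 293 genes at least 2-fold higher late than at time 0 in both clones, 24 were higher and 36 lower in c8, or 20.5%. Of 124 genes past 2-fold in c6 alone, 2 were higher and 30 lower in c8 (25.8%). Of 73 past it in c8 alone, 9 were higher and 5 lower (19.2%). Over all genes tested 10.8% were called, 5.29% higher and 5.50% lower in c8.

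The class that opened after induction is a description from 1 time 0 array per clone. Among genes lower in c8 it was led by MYC, KCNN3, RASEF (-1.11), GALNT6 (-1.07), IGFBP3 (-1.03), COL4A4 (-0.96), FBN1 and ZNF335 (-0.94). These, and the higher ones below, were chosen by size after their values were seen. Of the lower genes just named, only IGFBP3 passed the test of late against early described below. IGFBP3, an insulin-like growth factor binding protein, gave 228, 246 and 337 in c6 and 94.8, 148 and 131 in c8, from 10.8 and 6.8 at time 0. COL4A4, a basement membrane collagen, gave 164, 104 and 100.5 in c6 and 45.8, 47.0 and 71.2 in c8, from 3.2 and 5.8. In both genes all late arrays of both clones stood above their time 0 signals, and no late c8 array reached a late c6 array. Those higher in c8 included MYL12A, a myosin light chain (1.08), SEC23B of the coat of secretory vesicles (0.99), AMER3 (0.93), NAV3 (0.91) and the non-coding RNAs EP300-AS1 (0.93), SLC12A2-DT (0.91) and NOP14-AS1 (0.89). MYL12A gave 176, 170.4 and 161 in c6 and 266, 466 and 424 in c8, with 186 and 208 at time 0, but neither of its 2 other probe sets had the same sign. AMER3 gave 2.8, 2.8 and 3.2 in c6 and between 15.2 and 26.2 in c8, without overlap, and 20.9 and 14.0 at time 0.

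Whether a clone difference changed between the early and the late phase was tested directly, as the late minus the early difference over 12 arrays. By limma 15 genes passed (0.110% of genes tested; 1713 genes had an unadjusted p under 0.05), 12 with a more negative and 3 with a more positive late difference. SYNPO2, which encodes an actin-binding protein of muscle, showed it most clearly. Its early signals were 70.6, 60 and 154 in c6 and 356, 336.5 and 735 in c8, and its late ones 594, 551 and 737 in c6 and 751, 744 and 1020 in c8. The gap narrowed from 2.15 to 0.40 while c6 climbed, a change of -1.75 ± 0.14 (adjusted p = 0.000356), although only 2 of its 6 other probe sets had the sign of the late difference. PDZRN3, a ubiquitin ligase, crossed over, from 1.15 early to -0.58 late (change -1.72 ± 0.18, adjusted p = 0.002725). It stood at 244, 393 and 531 in c6 and 632, 669 and 1412 in c8 early, and at 1248, 1314 and 1582 in c6 and 792, 988 and 985 in c8 late.

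The collagens COL6A6 (change -1.79 ± 0.21) and COL11A1 (-1.50 ± 0.20) went from about 1.5 higher in c8 early to -0.29 and 0.03 late, values that did not pass late. FRMD4A, a scaffold of epithelial polarity (-1.35), the netrin receptor UNC5C (-1.59), MYO10, the myosin of filopodia (-0.86), and ZNF711 (-1.05) went from higher to lower in c8. IGFBP3 (-1.39) went from 0.36, which did not pass early, to lower in c8, and CCBE1 (-1.43), RORB (-1.16) and TRUB1 (-0.91) went from higher to values that did not pass. ACAT2, which makes acetoacetyl-CoA (0.89), CLSTN2, a synaptic calsyntenin (1.34), and CKM, the muscle creatine kinase (1.18), went the other way, from lower in c8 to values that did not pass late. CLSTN2 stood at 151, 172 and 116 in c6 and 35.9, 56.0 and 20.2 in c8 early, and at 43.1, 30.9 and 37.3 against 29.6, 23.6 and 26.8 late, as c6 fell. Of the 15 genes, 7 were also called in the late comparison. The test depended on the settings, with 28 genes without the arrays of time 12, 8 and 6 without those of 4 and 8, 7, 5 and 1 without those of 48, 72 and 96, 1 without the intensity trend, and none with a gene's probe sets averaged (limma, 1561 at an unadjusted p under 0.05).

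**Figure D4:**
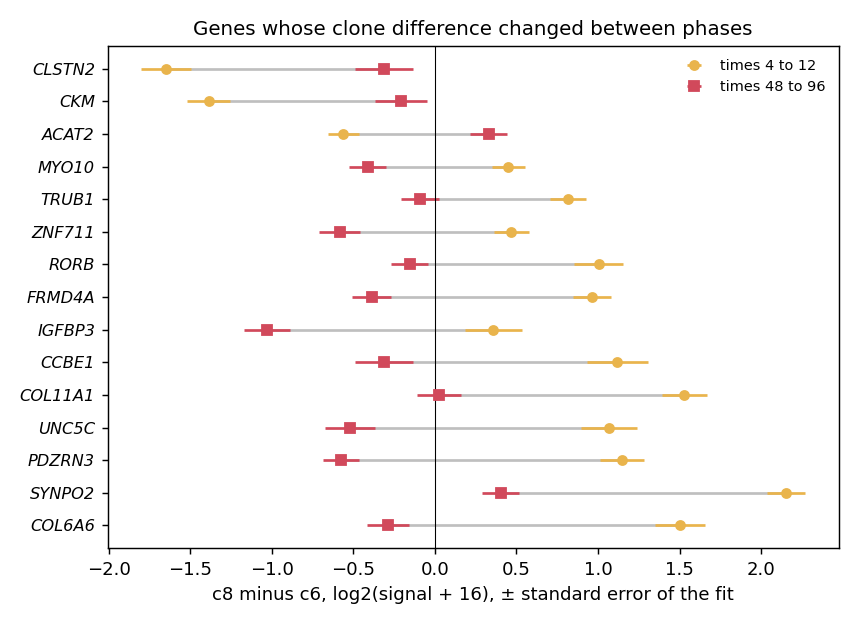
Clone difference (c8 minus c6, log2(signal + 16)) at times 4 to 12 (yellow circles) and 48 to 96 (red squares) for the 15 genes whose difference changed, with bars of 1 standard error of the limma fit over 6 arrays. SYNPO2 went from 2.15 to 0.40 and PDZRN3 from 1.15 to -0.58, and for 12 of the genes the late value lies to the left of the early one.

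Genes lower in c8 were gathered on chromosomes 2 and 12. The median late difference was -0.17 over 919 genes of chromosome 2 and -0.12 over 731 genes of chromosome 12, beside 0.03 over all genes. Together these chromosomes held 293 of the 752 lower genes (39.0%) and 12.1% of the genes tested. On chromosome 2, 178 genes were lower and 16 higher, and on chromosome 12, 115 and 16. The shift was there before induction, with medians of -0.16 and -0.15 at time 0 and of -0.15 and -0.16 early. It was uneven along both chromosomes. All 18 windows of 50 neighbouring genes on chromosome 2 and all 14 on chromosome 12 had a median below 0, beside quartiles of -0.03 and 0.09 over all 263 windows. On chromosome 2 the 9 windows from SLC67A2 to ANKMY1 lay between -0.22 and -0.38, and those before them between -0.01 (KCNIP3 to SLC9A2) and -0.14 (DDX1 to MAPRE3). On chromosome 12 the window medians lay between -0.02 (GALNT6 to ITGA5) and -0.33 (APOLD1 to KLHL42). The lowest window ran from IFT70B to HECW2 on chromosome 2 (median -0.38, 21 of 50 genes lower and none higher), and 13 of the 15 lowest windows lay on these chromosomes.

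Of the 15 lowest genes, 5 (IGFBP5, GPR155, CRYGD, SCG2 and FIGN) lie on chromosome 2. So do other lower genes named here, among them COL6A3, COL5A2, COL4A4, MAP2, NCL, ZDBF2, BMPR2, NRP2, KLF7 and both lower integrins, ITGA4 and ITGAV. On the other side, 3 of the 5 highest windows lay on chromosome 15, where 51 genes were higher and 15 lower (median 0.09), and the window from CPLX3 to ZFAND6 held 16 higher genes of 50 and none lower. The share of higher genes was 11.3% on chromosome 15, beside 5.29% of all genes tested. Chromosome 8 had 41 higher and 10 lower genes of 505 (8.12% and 1.98%), and chromosome 13 had 25 and 8 of 245 (10.2% and 3.27%). Chromosome 22 had 16 higher genes and none lower of 332. Its share of higher genes, 4.82%, was below that of all genes tested, while 5.50% of all genes were lower. Off chromosomes 2 and 12, 692 genes were higher and 459 lower, and the median was 0.05. DNA copy number was not measured here, and its part in these differences was not tested.

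**Figure D5:**
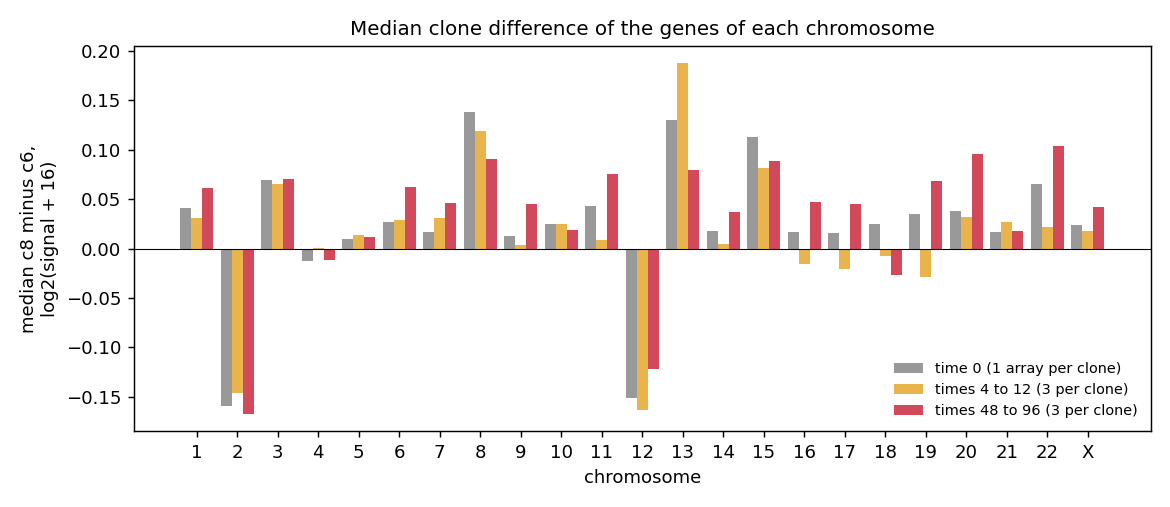
Median clone difference (c8 minus c6, log2(signal + 16)) of the genes tested on each chromosome at time 0 (grey), times 4 to 12 (yellow) and times 48 to 96 (red). Chromosomes 2 and 12 lie below -0.1 in all 3 phases, and chromosomes 3, 8, 13 and 15 lie above 0.05 in all 3.

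Measures of the arrays moved with the clones as well. The signal ratio of the 3′ to the 5′ control probes of ACTB, a sign of how intact the RNA was, lay between 1.23 and 1.30 on the late c6 arrays and between 1.56 and 1.60 on the late c8 arrays, and the clones did not overlap over all 17 arrays either (1.22 to 1.49 and 1.56 to 1.70). For GAPDH the late ranges overlapped (0.997 to 1.06 and 0.93 to 1.06). Late differences followed gene length, from a median of 0.09 in the shortest of 5 equal classes of genes (200 higher, 53 lower) to -0.03 in the longest (109 higher, 256 lower), while the early medians of those classes were -0.01 and 0.03. Among the 30 genes called at least 2-fold higher in c8, PHF5A, NPM3 and LMNB1 among them, 12 had their lowest c8 signals at 24 and 48, beside 3.80% of all genes tested. LMNB1 gave 445 in c8 at 48 but 1391 and 1042 at 72 and 96. The part of RNA quality, gene length and these 2 arrays in the differences was not tested. Other probe sets of called genes had the sign of the late difference in 1498 of 1849 cases (81.0%), beside 64.4% over all genes tested.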

How the data were processed

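RNA of IMR32 clones c6 and c8 was hybridised to 17 Affymetrix arrays, 1 per clone and time. The deposited value table holds 1 array intensity per probe set and sample, made by the authors with MAS5 and GCOS per the submitters' processing notes, with no version given; the mean over probe sets, leaving out the lowest and highest 2%, was 100.0 on every array, so the values are scaled per array. No cell counts or read depths exist for arrays, and the 3 late arrays per clone limit the precision. Groups and times came from the sample titles.

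Of 54675 probe sets, 41097 were paired with 1 gene symbol, 1801 with several and 11777 with none; the first kind covered 19775 genes, and the brightest probe set on average stood for each gene. Values were taken as log2(value + 16), and the 13675 genes whose mean was at or above the 40th percentile (4.68) were tested. The late comparison used limma 3.58.1 in R 4.3.3 on the 6 late arrays with clone and time as terms (2 residual degrees of freedom, 17.0 prior ones, intensity trend), Benjamini-Hochberg adjustment over all genes tested and a threshold of 0.05. The phase test used the 12 early and late arrays with the interaction of clone and phase. Intervals are at 95%. Leaving time out as a block, other pseudocounts, scalings, filters, probe set rules, variance models and leaving out each time were tried as alternatives. On simulated data 93% of genes changed 2-fold and 100% of those changed 4-fold were recovered in the late comparison, with 1 false call, and 72% and 99% in the phase test, with 8. The simulated noise was independent and normal, with the spread that limma itself had fitted and no effect of time. The simulation therefore could not check that variance model, on which the count of real calls rested.

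Time serves as the block because the labels give both clones the same times. Deviations of same-time arrays from the clone means correlated at 0.07, -0.01 and 0.12 at 48, 72 and 96, and those of arrays of different times at -0.10 to 0.04. At most 1.42% of values were equal between any 2 arrays.

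Named genes were the 15 largest called differences each way without overlap, up to 4 members of smallest p from each of 38 gene lists with a called member, other called members of the lists described in full, genes fixed by name, the genes of the phase test, and 8 genes each way that opened after induction, the last chosen after their values were seen. The comparison, its members and the lists were chosen with earlier results of these data known. Gene coordinates and the order of genes along chromosomes came from RefSeq (GRCh38.p14); 154 of 191 named genes had an entry in the promoter table. Some called genes that met these rules are not reported here.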

Additional observations from a re-analysis of the deposited data

Results flagged for a closer look

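The clone difference (c8 minus c6) itself differed between the early times (4, 8 and 12) and the late times (48, 72 and 96) for 15 genes, by the test of clone and phase together in limma over 12 arrays. The late difference was more negative than the early one for COL6A6 (-1.79), SYNPO2 (-1.75), PDZRN3 (-1.72), UNC5C (-1.59), COL11A1 (-1.50), CCBE1 (-1.43), IGFBP3 (-1.39), FRMD4A (-1.35), RORB (-1.16), ZNF711 (-1.05), TRUB1 (-0.91) and MYO10 (-0.86). It was more positive for CLSTN2 (1.34), CKM (1.18) and ACAT2 (0.89). Each kept its sign under all alternatives that gave it a value, which were 16 for every gene but CCBE1, with 15. SYNPO2 was called under 14 of them, PDZRN3, FRMD4A and COL6A6 under 12 each and COL11A1 under 8. ZNF711, UNC5C and IGFBP3 were called under 5, ACAT2, CLSTN2 and RORB under 3, CKM under 2, and MYO10, CCBE1 and TRUB1 under 1.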

How the results depend on the processing

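All 30 genes named as largest each way kept their direction under every alternative, and 23 were called under each. Counts moved more, and the cause was not tested. Main counts were 724 higher, 752 lower, 64 at least 2-fold apart and 15 in the phase test. With a pseudocount of 1 the last 2 were 193 and 5, and with 64 the 2-fold count was 21. Median centring gave 374 higher, 497 lower and 8 in the phase test, and quantile normalization 26 in the latter. With no filter there were 54 higher, 98 lower, 42 at 2-fold and 4 in the phase test; without the intensity trend 119, 161 and, in the phase test, 1. Averaging a gene's probe sets gave 439, 453, 40 and 0 (limma, 1561 genes at an unadjusted p under 0.05), and testing every probe set 1527 lower, 133 at 2-fold and 8 in the phase test. Leaving out the block of time gave 465 higher, 510 lower and 0 in the phase test (limma, 1193 at an unadjusted p under 0.05). Without time 48 there were 935 higher, 901 lower, 116 at 2-fold and 7 in the phase test, without 72 there were 347, 389, 62 and 5, and without 96 there were 364, 475, 97 and 1. Each early time left out, an alternative chosen after seeing the data, gave 6 to 28 in the phase test. Such fits keep 1 residual degree of freedom in the late comparison.

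Of the 191 named genes, 105 lost their call without the trend, 125 with no filter and 50 without the block. Signs reversed only for small differences that had not passed with the brightest probe set, with CPE as the exception. Under quantile normalization HAND2 was 0.0003 and MKI67 0.0015. With probe sets averaged, CXCR4 was -0.28, CCND1 -0.22, CPE 0.0059 and TRUB1 0.0185. The brightest probe set of CXCR4 stood at 0.10, but its 2 others were both called lower in c8. They stood at -0.42 (adjusted p = 0.0309) and -0.53 (adjusted p = 0.0110) by limma over every probe set. Without time 48, HEYL was -0.017, JAG1 -0.16 and COL11A1 -0.16. Without time 72, NRARP was 0.0343, HAND2 0.15, CXCR4 -0.0759 and MKI67 0.16, and without time 96, HAND2 was 0.10, COL3A1 0.074 and CCND1 -0.0193. Weak signals limit the folds of genes near the pseudocount, such as PAGE1 in c6.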
